A study of Homo sapiens with 8 samples.

Results

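The 10 genes described here are the receptor tyrosine kinase RET, its ligand-binding co-receptors GFRA1, GFRA2, GFRA3, GFRA4 and GFRAL, and the ligands GDNF, NRTN, ARTN and PSPN. They were taken by gene symbol from a table of 63677 genes, and all 10 were found. The family was chosen by the differences that RET and GFRA2 showed between the 2 groups of libraries in these same data, so every difference between the groups in a family member is given as a description, without a test. Expression of 10 normalized reads or more in 4 libraries or more was seen for 7 members: RET, GFRA1, GFRA2, GFRA3, NRTN, ARTN and PSPN. GFRA4, GFRAL and GDNF stayed below 10 normalized reads in every library.

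RNA was sequenced from LY2, a line derived from MCF-7 breast cancer cells that has become resistant to endocrine treatment. The cells stably carried a non-targeting short hairpin RNA (shNT, 4 libraries) or short hairpin RNA against NCOA1, the gene of the coactivator SRC-1 (shSRC1, 4 libraries). Both groups were grown in phenol red-free medium with hormone-stripped serum, 1e-08 mol/L 4-hydroxytamoxifen, the active metabolite of tamoxifen, and 500 ng/mL puromycin. Both then went without steroids for 72 h and received 1e-07 mol/L 4-hydroxytamoxifen for 8 h, so no library shows the cells without the drug. The labels do not say how many hairpins or clones each line holds, nor that replicates came from separate cultures, so p-values measure only the spread between these libraries.

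RET signals when a GDNF family ligand brings it together with a GFRα protein held in the membrane by a lipid anchor. GDNF prefers GFRα1, neurturin (NRTN) GFRα2, artemin (ARTN) GFRα3 and persephin (PSPN) GFRα4, with some exchange between pairs. GFRAL binds the stress cytokine GDF15 and also uses RET. The system is best known from enteric neurons, kidney branching and neuronal survival. In breast cancer, RET and GFRA1 are linked to luminal, estrogen receptor-positive tumours.

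RET and GFRA1 lie on the same chromosome and differed in opposite directions, so the DNA before a start site of each is shown. The sequences are RefSeq's, on GRCh38.p14, 5′ to 3′ on the gene's own strand. From the 250 bases before each start only the longest stretch outside annotated exons is printed, for the start with the most CpG in RET and for the CpG-rich start of GFRA1 with the longest such stretch. Capitals mark GC boxes (GGGCGG on either strand), a motif of Sp1-type factors.
RET, plus strand, chr10:43076819-43077026: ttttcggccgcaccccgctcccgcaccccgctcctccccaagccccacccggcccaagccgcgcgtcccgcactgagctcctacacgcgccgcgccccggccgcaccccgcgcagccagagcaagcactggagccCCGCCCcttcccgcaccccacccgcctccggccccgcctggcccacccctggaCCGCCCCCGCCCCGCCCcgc
GFRA1, minus strand, chr10:116272283-116272475: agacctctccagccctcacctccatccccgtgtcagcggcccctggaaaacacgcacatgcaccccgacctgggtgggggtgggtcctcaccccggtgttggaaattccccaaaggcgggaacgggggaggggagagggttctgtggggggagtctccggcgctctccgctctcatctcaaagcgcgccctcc
The RET stretch holds 4 GC boxes, some of which overlap each other, and 27 CpG in 208 bases. The GFRA1 stretch holds no whole GC box and 12 CpG in 193 bases. Over the full windows, RET had 5 GC boxes and GFRA1 had 1, which lies 11 bases upstream of its start and outside the printed stretch. This RET start had 33 CpG in its full window, more than 91.9% of 35116 promoters, and this GFRA1 start 17. A GC box occurs in 42.6% of these promoters. Neither full window held an estrogen response element (GGTCA and TGACC with 3 bases between, in 0.0399% of promoters), a nuclear receptor half-site (AGGTCA, in 12.1%), an AP-1 site (TGANTCA, in 6.57%) or a TATA box (TATAAA, in 10.7%), on either strand. The palindrome GCCNNNGGC, bound by AP-2 factors and found in 19.8% of promoters, occurred at 1 position before this RET start, 92 bases upstream, and at none before this GFRA1 start. Starts that are not printed differed. A GFRA1 start with 23 CpG had this palindrome 247 bases upstream and no GC box. The other RET start had 6 CpG, 1 GC box and no such palindrome. Such matches describe the letters only, and the table does not show which start the cells used.

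The hairpin's target was checked first. NCOA1 stood at 4381, 4212, 4467 and 4525 normalized reads (read counts divided by the authors' size factor for the library) in shNT replicates 1 to 4 and at 1927, 1895, 2215 and 2107 in shSRC1 replicates 1 to 4. It fell by 1.11 on the log2 scale (SE 0.08, limma adjusted p = 2.25e-07). Fold changes, apart from those of alternative settings, are on log2(value + 1), which understates the change of low genes. The libraries held 58459196 to 67022036 reads assigned to genes in shNT and 65321247 to 66248960 in shSRC1 replicates 1, 3 and 4, with 33771775 in shSRC1 replicate 2. Over the 19559 genes tested with limma, 23.2% passed a Benjamini-Hochberg adjusted p of 0.05, 2344 genes higher and 2194 (11.2%) lower in shSRC1. The groups did not overlap for 16.9% of genes on the higher side and 12.1% on the lower side. Without shSRC1 replicate 2, 1453 genes passed on the lower side.

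Of the 7 measured members, 3 differed without overlap of the groups, GFRA1 higher and RET and GFRA2 lower in shSRC1. The background shares without overlap are 16.9% higher and 12.1% lower, and nothing is read from the comparison, since this contrast was in view when the family was chosen. GFRA3, NRTN, ARTN and PSPN overlapped between the groups.

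RET, the shared signalling receptor, was the most abundant member. It stood at 7209, 6403, 6662 and 6639 normalized reads in shNT replicates 1 to 4 and at 4259, 4020, 4009 and 3861 in shSRC1 replicates 1 to 4. Every shSRC1 library lay below every shNT library, and values within a group lay close together. The means were 6728 ± 341 and 4037 ± 165 (SD, n = 4 each), 1.67 times lower in shSRC1, with a log2 fold change of -0.74 (SE 0.08, 95% confidence interval -0.90 to -0.58). A lower log2 fold change was found for 5.08% of tested genes. With 29552 reads summed over shNT and 15409 over shSRC1, counting error alone gives a coefficient of variation of 1.2% and 1.7%, against 5.07% and 4.08% observed. In bulk RNA, fewer cells with RET and less RET RNA per cell cannot be told apart.

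GFRA2, the preferred co-receptor of neurturin, differed most within the family. It stood at 1486, 1372, 1175 and 1308 normalized reads in shNT replicates 1 to 4 and at 280, 278, 207 and 228 in shSRC1 replicates 1 to 4. The highest shSRC1 library was far below the lowest shNT library. The means of 1335 ± 129 and 248 ± 37 (SD, n = 4 each) differed 5.38-fold, or by -2.43 on the log2 scale (SE 0.12, with -2.68 to -2.17 as the 95% confidence interval). Of the tested genes, 0.169% had a lower log2 fold change, which puts GFRA2 at rank 34 from the bottom of 19559. Nothing is read from this rank, since the family was chosen in part by this difference.

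GFRA1, the preferred co-receptor of GDNF, went the other way. Its 4 shNT libraries held 95.6, 132, 86.3 and 143 normalized reads and its 4 shSRC1 libraries 302, 290, 334 and 321. All shSRC1 values lay above all shNT values, and the shNT libraries were the more scattered. The means were 114 ± 27 and 312 ± 19 (SD, n = 4 each), 2.73 times higher in shSRC1, which is 1.47 on the log2 scale (SE 0.16, with 1.12 to 1.82 as the 95% confidence interval). Its coefficient of variation of 23.9% in shNT exceeded the 8.9% that counting error gives for 503 reads, while in shSRC1 the values were 6.16% and 6.0%. A higher log2 fold change was found for 0.864% of tested genes.

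GFRA3, the preferred co-receptor of artemin, held 144, 155, 95.6 and 129 normalized reads in shNT and 142, 129, 125 and 143 in shSRC1. The groups overlapped, the lowest value being that of shNT replicate 3. Its log2 fold change was 0.06 (SE 0.17), with a 95% confidence interval of -0.29 to 0.42. GFRA4, the preferred co-receptor of persephin, had 0 reads in all shNT libraries and 1 read in shSRC1 replicate 4, and GFRAL had 0 reads in all shNT libraries and 1 read in shSRC1 replicate 1. A count of 0 allows up to 3 reads, or 2.67 to 2.79 normalized reads in an shNT library and up to 5.25 in shSRC1 replicate 2, for counting error only.

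**Figure D1:**
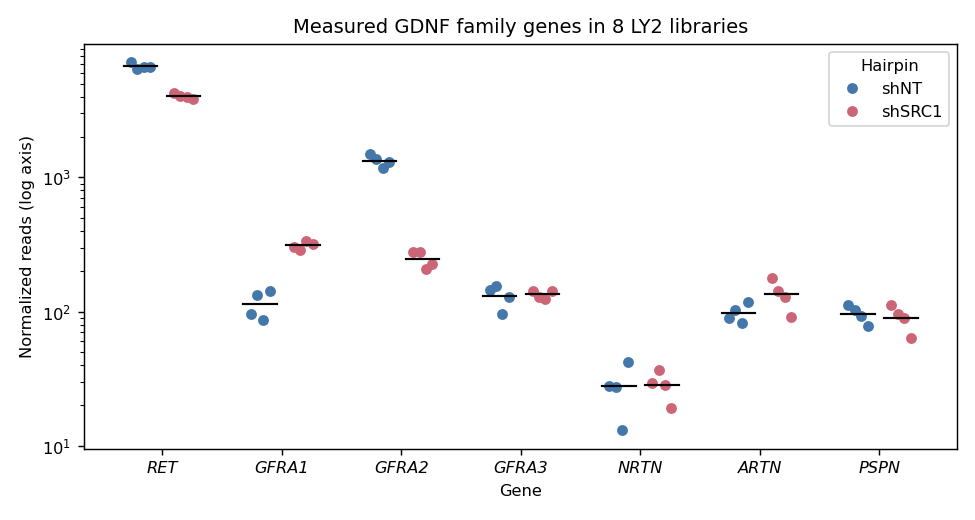
Normalized reads (log axis) of the 7 measured members in each library, shNT in blue and shSRC1 in red, with points ordered by replicate number and black lines at the group means. RET and GFRA2 separate downwards in shSRC1 (means 4037 and 248 against 6728 and 1335), GFRA1 separates upwards (312 against 114), and the other 4 genes overlap.

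Levels of different genes were compared per kilobase of the longest annotated transcript. On that scale the shNT order was RET at 1189 ± 60, GFRA2 at 271 ± 26, GFRA3 at 64.3 ± 12.7, ARTN at 50.6 ± 8.3, NRTN at 24.9 ± 10.7, PSPN at 24.6 ± 3.6 and GFRA1 at 12.4 ± 3.0 normalized reads per kilobase (SD, n = 4). RET and GFRA2 stood clear of the rest, while GFRA3 and ARTN, NRTN and PSPN, and NRTN and GFRA1 lay within each other's spread. In shSRC1 the order was RET at 713 ± 29, ARTN at 69.1 ± 18.3, GFRA3 at 66.2 ± 4.4, GFRA2 at 50.5 ± 7.4, GFRA1 at 33.8 ± 2.1, NRTN at 25.6 ± 6.5 and PSPN at 23.0 ± 5.1 (SD, n = 4). Among these, ARTN and GFRA3, ARTN and GFRA2, GFRA1 and NRTN, and NRTN and PSPN could not be separated beyond their spread. GFRA1 thus had the lowest mean of the measured members in shNT, not separated from NRTN, and stood behind only RET, ARTN, GFRA3 and GFRA2 in shSRC1. With all exons of a gene merged, ARTN came to 50.5 in shSRC1 and took its place below GFRA3 at 66.2, since some ARTN exons are absent from its longest transcript. For PSPN, merging changed nothing, but all 250 bases before its RefSeq start lie in the exons used here. If the cells used that shorter form, the level of PSPN per kilobase and its place are understated, which was not tested.

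The make-up of the co-receptors followed from these values. Of the reads per kilobase of GFRA1, GFRA2 and GFRA3 together, GFRA2 made up 78.9%, 75.5%, 80.9% and 77.1% in shNT replicates 1 to 4 and 35.7%, 37.3%, 30.1% and 30.7% in shSRC1 replicates 1 to 4. GFRA1 went from a mean share of 3.56% ± 0.78 to 22.6% ± 2.5, and GFRA3 from 18.3% ± 1.9 to 44.0% ± 1.8 (SD, n = 4 each). GFRA3's larger share came with an overlapping level of its own. GFRA2 exceeded GFRA1 by 29.1, 19.5, 25.5 and 17.2 times per kilobase in the shNT libraries and by 1.74, 1.79, 1.16 and 1.33 times in the shSRC1 libraries, so GFRA2 remained the higher of the pair in all 8. The 3 co-receptors summed to 348 ± 39 normalized reads per kilobase in shNT and 151 ± 8 in shSRC1 (SD, n = 4). RET exceeded that sum 3.33, 3.06, 3.99 and 3.40 times in shNT and 4.72, 4.69, 5.07 and 4.51 times in shSRC1. These shares describe RNA, and depend on the members' differences already given.

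**Figure D2:**
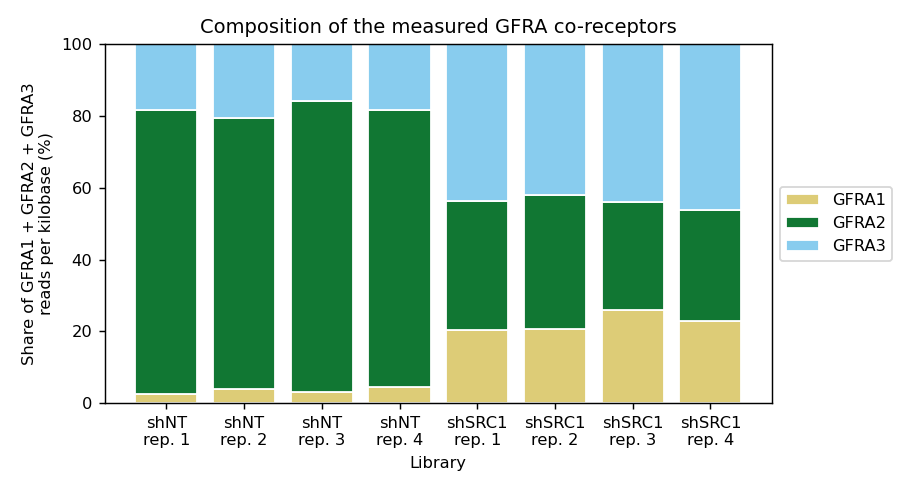
Share of GFRA1, GFRA2 and GFRA3 in their summed normalized reads per kilobase (%), 1 bar per library. GFRA2 fills 75.5% to 80.9% of the bars in shNT and 30.1% to 37.3% in shSRC1, where GFRA3 is the largest part.

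Among the ligands, ARTN had the highest mean level per kilobase of the longest annotated transcript in both groups. It held 90.0, 103, 81.7 and 118 normalized reads in shNT and 177, 142, 128 and 90.7 in shSRC1. The shSRC1 libraries spread widely, from within the shNT range to well above it. The means were 98.3 ± 16.0 and 134 ± 36 (SD, n = 4 each), or 0.42 on the log2 scale (SE 0.20, 95% confidence interval -0.01 to 0.85). PSPN held 111, 102, 92.8 and 78.0 in shNT and 111, 96.2, 90.0 and 63.2 in shSRC1, with a log2 fold change of -0.11 (SE 0.20). The groups covered nearly the same range. NRTN held 27.8, 27.5, 13.0 and 42.2 in shNT and 29.4, 36.7, 28.2 and 19.2 in shSRC1, with a log2 fold change of 0.11 (SE 0.34). NRTN varied more within shNT (coefficient of variation 43.1%) than counting error gives (18%), and the 95% confidence interval of its log2 fold change ran from -0.61 to 0.84. Its fold change was -0.20 without shNT replicate 3 and that of GFRA3 -0.08, both on the other side of 0.

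GDNF itself was barely seen. Its shNT libraries held 0, 1, 2 and 0 reads and its shSRC1 libraries 0, 4, 0 and 1. The 4 reads lay in shSRC1 replicate 2, the shallowest library, where they amount to 7.00 normalized reads. A known antisense gene, GDNF-AS1, overlaps 12.3% of the bases in GDNF exons, and whether reads were counted by strand is not stated, so reads of the pair cannot be told apart. PSPN shares 2.66% of its exonic bases with ALKBH7 on the opposite strand, and the same holds there.

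Libraries differed in how their values followed GC content, and some GC-rich members ranked alike in shSRC1 while others did not. Across 18787 tested genes, Spearman's rho between GC content and a library's deviation from its group mean was 0.47, 0.064, -0.23 and -0.11 in shNT replicates 1 to 4 and 0.55, 0.16, -0.35 and -0.49 in shSRC1 replicates 1 to 4, where genes are not independent replicates. The longest transcripts of NRTN, ARTN and PSPN have GC contents of 70.0%, 68.2% and 58.3%, against a median of 48.7% over tested genes, and that of GFRA1 45.8%. In shSRC1, ARTN and PSPN were highest in replicate 1 and lowest in replicate 4, the order of the rho values. NRTN was highest in shNT replicate 4 and shSRC1 replicate 2, ARTN in shNT replicate 4, and GFRA3, at 60.8% GC, in shNT replicate 2 and shSRC1 replicate 4, which is not that order. RET, at 54.5% GC, and GFRA2, at 55.2%, were also highest in replicate 1 of each group. The order of the rho values was met in full by RET in shSRC1 and by GFRA2 in shNT. GFRA2 was lowest in shSRC1 replicate 3. PSPN in shNT was highest in replicate 1 but lowest in replicate 4, which is not the order there. With each library corrected for length and GC content, the log2 fold changes of RET, GFRA1, GFRA2 and ARTN were -0.77, 1.44, -2.46 and 0.40.

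Genes that work with RET were counted in 4 lists, and their calls come from the limma fit over all 19559 genes. Across the 61 listed genes, 53 were tested, 5 rose, 12 fell and 36 did not pass, a called share of 32.1% beside 23.2% of all tested genes. The lists' medians lay between -0.21 and -0.03 on the log2 scale, beside -0.0025 for all tested genes.

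Of 7 tested co-receptors and related genes, 3 fell and 0 rose in limma, a called share of 42.9% beside 23.2% of all tested genes. In limma 1 was higher at an unadjusted p under 0.05, while edgeR and DESeq2 called 0 higher. SORL1, a sorting receptor that carries GDNF and GFRα1 inside cells, fell from 3481 ± 346 to 2272 ± 103 normalized reads (SD, n = 4 each). It fell by 0.61 on the log2 scale (SE 0.09, limma adjusted p = 2.08e-04). ITGB1, the integrin β1 subunit, fell by 0.36 (limma adjusted p = 0.0129). NCAM1, an adhesion molecule that can serve as a GDNF receptor without RET, fell from 230 ± 19 to 154 ± 45, with a limma adjusted p of 0.0227 that became 0.0786 without shSRC1 replicate 1 and 0.0690 without shSRC1 replicate 2. GDF15, the ligand of GFRAL, stood at 3474 ± 514 and 2975 ± 235 (limma adjusted p = 0.156), and CDH2 was too low to test.

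Of 20 tested docking and signalling proteins, 1 rose and 3 fell, or 4 in all, a share of 20% beside the 23.2% of all tested genes. Without shSRC1 replicate 1 the counts were 2 and 5, and without shNT replicate 3 the first was also 2. DOK4, an adaptor that binds activated RET, rose from 1470 ± 223 to 2083 ± 173 (SD, n = 4 each; log2 fold change 0.51, SE 0.11, limma adjusted p = 0.0048), with shNT replicate 3 at 1138 well below the other shNT libraries. IRS1 and IRS2, substrates of the insulin receptor, fell by 0.54 and 0.62 on the log2 scale (limma adjusted p = 3.88e-04 and 4.29e-04), and PTPN11, the phosphatase SHP2, fell by 0.43 (adjusted p = 0.0036). The core adaptors SHC1, GRB2 and FRS2 had log2 fold changes of 0.07, 0.25 and -0.01 and did not pass. DOK2, DOK5 and DOK6 were too low to test.

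Of 16 genes that lie downstream of RET in the ureteric bud or are tied to ERK signalling, 2 rose, 4 fell and 10 did not pass. That is a called share of 37.5% beside 23.2% of all tested genes. MYB, a transcription factor gene, rose from 1324 ± 32 to 2101 ± 152 normalized reads (SD, n = 4 each; log2 fold change 0.66, SE 0.08, limma adjusted p = 5.25e-05). SPRY2, an ERK feedback inhibitor, rose by 0.47 (limma adjusted p = 0.0293). That call was lost, with adjusted p between 0.0537 and 0.0907, when shNT replicate 1, 3 or 4 was left out, and likewise for shSRC1 replicate 1 or 2. The list then had 1 gene that rose, except without shNT replicate 1. Its relative SPRY4 fell by 0.39 (adjusted p = 0.0057), the immediate early gene EGR1 by 0.75 (adjusted p = 0.0065), the HGF receptor gene MET by 0.40 (adjusted p = 0.0069) and the ETS factor ETV4 by 0.45 (adjusted p = 0.0137). ETV5, the close relative of ETV4, stood at 156 ± 19 and 120 ± 21 (limma adjusted p = 0.0955), and the ERK phosphatase DUSP6 at 250 ± 15 and 275 ± 23 (adjusted p = 0.414). These genes have many inputs besides RET, and members of the list went both ways.

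Of 10 tested transcription factors linked to RET, 2 rose and 2 fell, a called share of 40% beside 23.2% of all tested genes. ESR1, the estrogen receptor, stood at 20472 ± 349 and 18728 ± 946 (SD, n = 4 each; limma adjusted p = 0.233), all shSRC1 libraries lying below all shNT libraries, and FOXA1, its pioneer factor, at 22714 ± 1326 and 21565 ± 455 (adjusted p = 0.524). TFAP2C, which encodes an AP-2 factor known to act on RET in breast cancer cells, had a log2 fold change of 0.10 (adjusted p = 0.356), while its relative TFAP2A fell by 0.46 (SE 0.08, limma adjusted p = 0.0011). NKX2-1, a lung and thyroid factor, rose from 99.1 ± 10.2 to 160 ± 10 (limma adjusted p = 0.0038). RARA, a retinoic acid receptor, rose by 0.28 (adjusted p = 0.0418), a call that was lost when shNT replicates 1, 2 or 4 or shSRC1 replicates 1, 2 or 3 were left out (limma adjusted p from 0.0542 to 0.100), which left 1 gene of the list that rose.

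**Figure D3:**
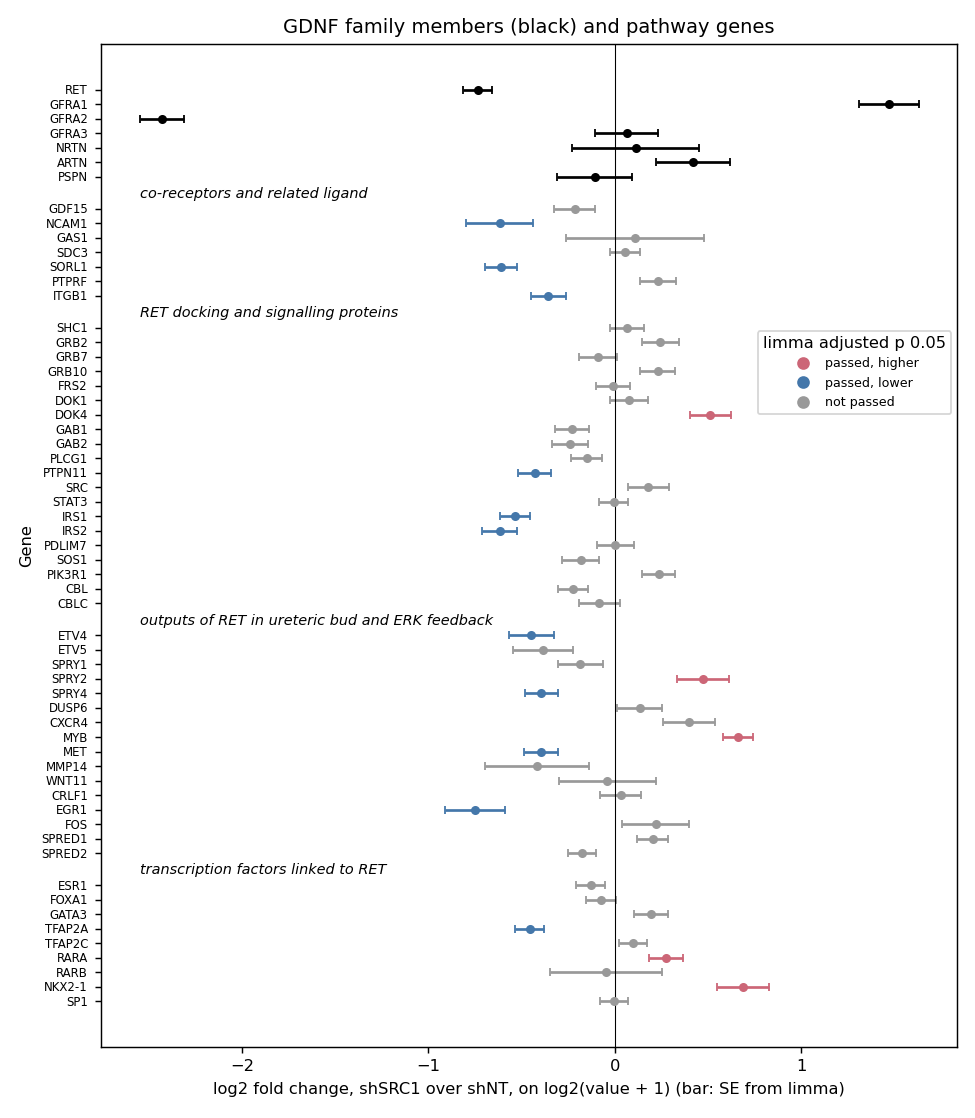
Log2 fold change of shSRC1 over shNT with its SE from limma, for the 7 measured members (black, described without a test) and 52 of the 53 tested pathway genes in 4 lists, coloured by limma's call at an adjusted p of 0.05. GFRA2 at -2.43 and GFRA1 at 1.47 lie outside the range of the pathway genes drawn, which runs from -0.75 for EGR1 to 0.69 for NKX2-1. Nothing is read from this, since this contrast was in view when the family was chosen.

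Neighbours of RET, GFRA2 and GFRA1 were the 10 tested protein-coding genes on each side in the gene order of the GENCODE 29 annotation. Order alone defined them, without a limit on distance, so some may lie far from the named gene. The family was chosen with this contrast in view, so the place of RET, GFRA2 or GFRA1 against its neighbours is a description only. Of the 20 neighbours of RET on chromosome 10, 7 fell, 3 rose and 10 did not pass, with a median log2 fold change of -0.22. That is a called share of 50%, beside 23.2% of all tested genes. ZNF33B, a zinc finger gene separated from RET by BMS1, fell from 771 to 398 normalized reads on average (log2 fold change -0.95, SE 0.14, limma adjusted p = 2.80e-04). ZNF33A fell by 0.60 and ZNF248 by 0.49 (adjusted p = 0.0049 and 0.0099), but ZNF33A and ZNF33B are close copies, so reads of one may be counted for the other. On the other side the chemokine gene CXCL12 rose by 0.58, ZNF32 by 0.51 and, among the genes before RET, the Wnt receptor gene FZD8 by 0.63 (limma adjusted p = 4.97e-04, 0.0055 and 0.0033). RET at -0.74 thus lay within the range of its neighbours, -0.95 to 0.63.

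The neighbours of GFRA2 on chromosome 8 lay on both sides of 0, 9 of 20 below it. Of the 20, 5 rose and 0 fell in limma, a called share of 25% beside 23.2% of all tested genes. In limma 2 were lower at an unadjusted p under 0.05, while edgeR called 0 lower and DESeq2 1. The median was 0.09. PDGFRL rose by 0.84, PSD3 by 0.40 and POLR3D by 0.28 (limma adjusted p = 6.72e-04, 0.0060 and 0.0188), the last lost without shSRC1 replicate 3 (adjusted p = 0.0541). Without shSRC1 replicate 2 or 3, 3 neighbours rose, and 1, 1 and 2 fell without shNT replicate 2, shNT replicate 4 and shSRC1 replicate 3. GFRA2 at -2.43 lay below all 20, of which the lowest, SFTPC at -1.06, had an SE of 2.9 and a mean that was higher in shSRC1 (144 against 88.5 normalized reads), so its sign is not settled.

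Among the 20 neighbours of GFRA1 on chromosome 10, 18 had a log2 fold change below 0. These neighbours were counted after the members' values had been seen. Of 20, 10 fell and 1 rose, a called share of 55% beside 23.2% of all tested genes, with a median of -0.30. In place of 10, 6 fell without shNT replicate 4, without shSRC1 replicate 1 or without shSRC1 replicate 2. TDRD1, a germline gene, fell by 5.79 on the log2 scale, and HSPA12A and NHLRC2 by 0.70 and 0.54 (limma adjusted p = 6.09e-08, 1.36e-04 and 9.14e-04). The 1 neighbour that rose was C10orf82, by 0.33 (adjusted p = 0.0452), a call lost without any of shNT replicates 1, 3 or 4 or shSRC1 replicates 1, 2 or 4 (limma adjusted p from 0.0651 to 0.122), which left 0 higher. GFRA1 at 1.47 stood above all 20.

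**Figure D4:**
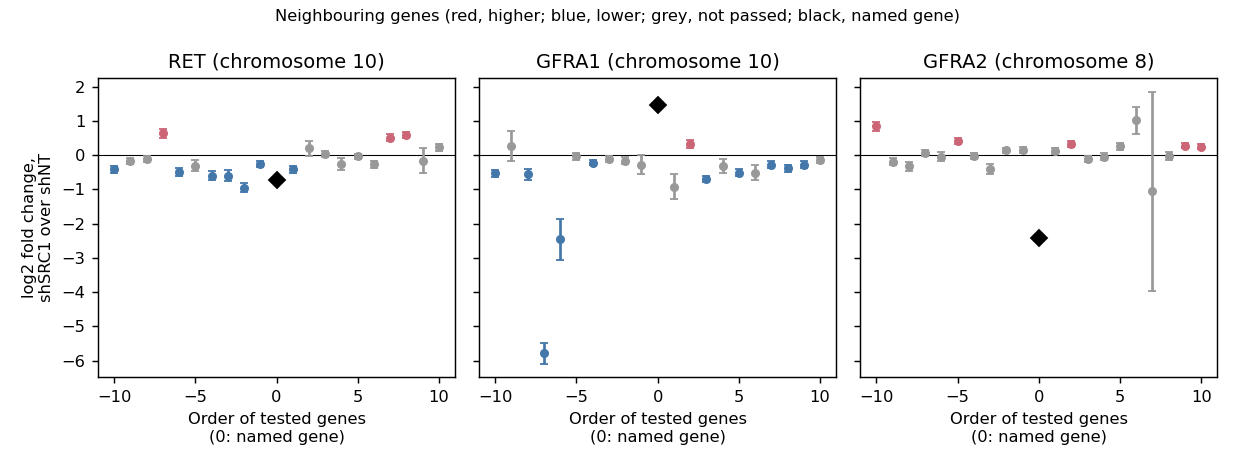
Log2 fold change with its SE for the 10 tested protein-coding genes on each side of RET, GFRA1 and GFRA2, in gene order, with the named gene as a black diamond. RET sits within its neighbours' range, and GFRA1 lies above and GFRA2 below all 20 of theirs. The large differences of GFRA1 and GFRA2 made such a place likely beforehand, and nothing is read from it.

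The genes whose log2 values ran most like those of RET over the 8 libraries were EPAS1, the hypoxia factor HIF-2α (Pearson r = 0.998), PRODH (0.994), UNC13D (0.993), IFITM10 (0.993) and CDK18 (0.993). For GFRA2 they were the taurine transporter gene SLC6A6 (0.997), CDC42EP3 (0.996), the sphingosine receptor gene S1PR3 (0.996), MYO10 (0.995) and SSX2 (0.995), which has a near-identical copy. All 10 were lower in shSRC1 libraries on average, and r takes in the gap between groups as well as the spread within them: 529 and 482 of 13626 ranked genes had an r above 0.9 with RET and GFRA2. With group means removed, 115 genes passed 0.9 for RET and 37 for GFRA2, led by PRDM16, MLLT1, SCARF2, MFSD12 and SLC22A17 (0.982 to 0.968) for RET and by CLIP2, FAM117A, CRAT and SAFB2 (0.985 to 0.973) for GFRA2. The longest transcripts of these last 9 genes have GC contents of 56.7% to 71.6%, above the median of 48.7%, and with 8 points and so many genes such r values are a description of these libraries.

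Cell type markers were read in the same libraries. The luminal markers EPCAM, KRT8, KRT18, KRT19, ESR1, FOXA1 and GATA3 were all abundant, summing to 291009 to 369166 normalized reads in shNT and 462972 to 528373 in shSRC1. KRT8, KRT18 and KRT19 were the 3 of 7 that rose in limma, a called share of 42.9% beside 23.2% of all tested genes. KRT8 alone went from a mean of 132214 to 210603. EPCAM, ESR1, FOXA1 and GATA3 had log2 fold changes of -0.16, -0.13, -0.07 and 0.19 and did not pass. Markers of enteric neurons and Schwann cells, which carry RET in the gut, summed to 8.07 to 15.1 in shNT and 11 to 19.2 in shSRC1, with 2 of these 6 markers, ELAVL4 among them, at 0 in every library. The 5 neuroendocrine markers summed to 108 to 135 and 133 to 163, mostly SYP, and 3 of 5 were tested with none called in limma. The 6 fibroblast markers summed to 1632 to 2184 and 1452 to 1978, mostly COL1A1, and the 5 leukocyte markers to 22.3 to 73.3 and 14 to 57.7. The part of the higher keratin sum in the members' differences was not tested.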

How the data were processed

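The authors deposited 1 table of 63677 genes by 8 libraries of LY2 cells, whose values are a signal proportional to reads, each being a read count divided by a size factor for its library, as the values' steps show. TopHat2 2.0.12 and HTSeq 0.6.1 are listed beside DESeq, DESeq2 and the build GRCh37, per the submitters' processing notes. How reads were counted, and on which annotation, was not stated in the sources used. Whole reads were recovered from the steps of the values (100.0% whole within 0.001 reads).

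Groups and replicate numbers came from the labels. Genes reaching 10 normalized reads in 4 or more libraries entered limma 3.58.1 (R 4.3.3, trend, robust variances) on log2(value + 1), two-sided tests, Benjamini-Hochberg adjusted. The members, lists and the rule for named genes (members, NCOA1, up to 4 called genes per list and direction, up to 3 called neighbours per direction, 5 most alike genes) were chosen with earlier results of these data known. List genes that missed the threshold and are named were chosen after their values were seen. GENCODE 29 (GRCh38) gave gene order, length and GC content by Ensembl identifier; promoters of GFRA2 and GFRAL are not shown. Alternatives were other scalings, filters, pseudocounts, edgeR 4.0.16 and DESeq2 1.42.0 on recovered reads, a replicate block, each library left out and, added after seeing the data, a length and GC correction. Values of a few single genes are not reported here, though counts over lists include them.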

Additional observations from a re-analysis of the deposited data

Results flagged for a closer look

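In 6 of 134 groups of 4 libraries examined, 1 library stood apart from the other 3, its gap to the nearest divided by the group's range being above 0.829; chance flags about 1 in 20 groups. For GFRA4 and GFRAL in shSRC1 the ratio was 1, from 1 read in replicate 4 and 1 read in replicate 1 with 0 in the others. For GDNF in shSRC1 it was 0.869, with 7.00 normalized reads (4 reads) in replicate 2 and at most 0.916 in the others. DOK4 in shNT gave 0.860, with 1138 normalized reads in replicate 3 against 1539 to 1605, and ETV4 in shNT gave 0.939, with 595 in replicate 3 against 733 to 742. POLR3D in shSRC1 gave 0.830, with 2818 in replicate 2 against 2956 to 2985.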

How the results depend on the processing

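Over 18 alternative settings the log2 fold change stayed between -0.77 and -0.70 for RET, 1.35 and 1.59 for GFRA1, and -2.49 and -2.35 for GFRA2, and ARTN stayed between 0.28 and 0.59. GFRA3 (-0.08 to 0.15), NRTN (-0.20 to 0.35, 17 settings) and PSPN (-0.22 to 0.05) took both signs. Scalings moved the median of all genes by less than 0.1. With TMM scaling 1 transcription factor linked to RET was higher, 0 neighbours of GFRA1 were higher and 1 neighbour of GFRA2 was lower. With upper-quartile scaling 2 docking proteins were higher. With no filter 1 output of RET, 1 transcription factor, 0 neighbours of GFRA1 and 3 neighbours of GFRA2 were higher. With a minimum of 50, and in DESeq2, 1 neighbour of GFRA2 was lower. With the length and GC correction 2 docking proteins were higher and 6 lower, 1 co-receptor gene was higher, 0 neighbours of GFRA1 were higher and 1 neighbour of GFRA2 was lower. With merged exons GFRA2 and GFRA3 made up 75.6% and 20.6% of the co-receptors in shNT, GFRA3 46.7% in shSRC1, and RET exceeded their sum 4.12 times in shSRC1. For each of these the cause was not tested. Leaving out 1 library gave 1688 to 2524 genes higher and 1453 to 2291 lower in all, 1 to 2 docking proteins higher and 3 to 5 lower, 0 co-receptor genes higher and 2 to 4 lower, 1 to 3 outputs higher and 4 lower, 1 to 2 transcription factors higher and 2 lower, 0 to 1 neighbours of GFRA1 higher and 6 to 10 lower, 3 to 5 neighbours of GFRA2 higher and 0 to 2 lower, and 3 neighbours of RET higher and 5 to 7 lower. Calls of the other named genes held in 531 gene and setting pairs and were lost in 27.

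The labels tie same-numbered libraries by number alone. Their deviations correlated at 0.24, -0.01, 0.13 and 0.14. Replicates 1, 3 and 4 correlated best with their own number, a hint from the data and not the design, whereas shNT replicate 2 correlated best with shSRC1 replicate 4 (0.13), so no pairing was taken. With the replicate block 6398 genes passed in place of 4538, with 4 docking proteins higher and 6 lower, 1 co-receptor gene higher, 4 outputs higher and 2 neighbours of GFRA2 lower. With few reads, GDNF, GFRA4 and GFRAL give no comparison, and NRTN, at 104 to 122 reads per group, has wide errors.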
